A study of Mus musculus with 12 samples.

Results

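The 117 genes described here encode the pore-forming and accessory subunits of voltage-gated sodium, voltage-gated calcium, potassium and HCN channels. They were chosen by symbol alone, as the genes with a single annotated name of the form Scn, Kcn, Cacn or Hcn followed by a subunit number, out of 18193 genes with a single symbol on the array. The set holds 11 Scn genes, 24 Cacn genes, 80 Kcn genes and 2 Hcn genes, and the rule used no measured value. Their 245 probe sets are groups of short oligonucleotides that read a transcript or several of them. The probe set with the highest mean log2(signal + 16) over the 12 arrays stands for each gene. All 117 matched a gene of the RefSeq table by Entrez identifier, with the same symbol.

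Voltage-gated channels open when the membrane potential changes and let a selected ion cross the membrane. Sodium channels carry the upstroke of the action potential, calcium channels couple activity to transmitter release and gene expression, and potassium channels repolarise the cell and set its resting potential. HCN channels open on hyperpolarisation. Pluripotent cells are not electrically excitable in the way neurons are, and the appearance of these subunits is part of how a neuron acquires its firing properties.

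The 4 groups of 3 Affymetrix arrays were mouse embryonic stem (ES) cells of the 129P2/OlaHsd (E14, Ainv15) background, in which a tetracycline-responsive system drives neurogenin 1 (Neurog1), a bHLH factor that starts neuronal differentiation. Uninduced cells were ES cells in maintenance culture, given a time of 0 h. Induced cells received 1 ug/ml doxycycline for 24, 48 or 72 h. The labels give all groups the same serum-containing medium with LIF, puromycin and G418. The only uninduced group was at 0 h, so what transgene, drug and hours of culture each did cannot be told apart. The sources do not say whether the line is a single clone. The labels call the arrays biological replicates without saying that they came from separate cultures, so p-values measure the spread between these arrays. The 3 comparisons with uninduced cells share those 3 control arrays.

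Neurog1 itself gave signals of 4.53 to 18.7 on the uninduced arrays and 465 to 1150 on the induced arrays at its brighter probe set. All 8 ES cell markers tested were lower at 48 and at 72 h, their summed signal going from 41500 to 47800 in uninduced cells to 4990 to 5460 at 72 h. Of 10 neuronal markers, 9 were higher at 48 and at 72 h, and the sums over all 10 were 4040 to 4760 in uninduced cells and 21900 to 24500 at 72 h. Stmn2 was the exception, with signals of 3220 to 3650 in uninduced cells, which made up most of that sum. Its signals were 686 to 1650 at 24 h and 4570 to 5240 at 72 h. Of 10 cardiac and skeletal muscle markers, 7 were too low to test, 1 of the other 3 was lower at 48 and 72 h, and their summed signal stayed between 126 and 409 over the 12 arrays. Of the markers of other cell types, Mbp, Col1a2, Foxa2 and Sox17 were higher at 1 or more times; the astroglial markers Gfap and Aqp4 were too low to test. The part of these markers in the channel results was not tested. Induced 24 h replicate 1 (called the first 24 h array) stands apart, with correlations of 0.812 and 0.787 over genes with the other 24 h arrays, against 0.961 or more for every other pair within a group. Results at 24 h are therefore also given without it.

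Most channel genes were near or below the typical signal of the array. A gene is called at the floor in a group where its signal was at or below the array's median (19.5 to 32.8 over the 12 arrays) on all 3 arrays of the group. By this measure 66 of the 117 channel genes (56.4%) were at the floor in uninduced cells, 60 at 24 h, 64 at 48 h and 59 (50.4%) at 72 h. Over all 18193 genes the share at the floor was 30.5% in uninduced cells and 34.4% at 72 h. The 33 channel genes at the floor in all 4 groups made up 28.2% of the set, against 21.3% of all genes. The fall in the count depends on where the floor is set. With the floor at percentile 40 of the array it went up, from 33 and 34 in uninduced cells and at 24 h to 42 at 48 and at 72 h, and over all genes from 19.5% in uninduced cells to 24.3% at 72 h. With the floor at percentile 60 it was 96, 85, 84 and 86. The families moved in different directions on this count. Sodium channel alpha subunits at the floor went from 8 of 8 in uninduced cells to 6, 5 and 3 at 24, 48 and 72 h, and calcium channel alpha1 subunits from 6 of 9 to 3, 2 and 2. The 80 Kcn genes gave 45, 43, 49 and 47. The silent Kv subunits went the other way, from 5 of 9 to 8 of 9 at 72 h. From uninduced cells to 72 h the sodium channel alpha, calcium channel alpha1 and silent Kv subunits kept their directions at percentiles 40 and 60. The counts went from 3 to 2 and 8 to 5 for the sodium channel alpha subunits and from 3 to 0 and 8 to 5 for the calcium channel alpha1 subunits. For the silent Kv subunits they went from 3 to 5 and 7 to 9. The course between was not always even: over the 4 groups the sodium channel alpha subunits gave 3, 4, 4 and 2 at percentile 40. The silent Kv subunits gave 7, 6, 8 and 9 at percentile 60. The 80 Kcn genes gave 22, 23, 31 and 34 at percentile 40 and 67, 59, 64 and 66 at percentile 60. Each floor is set by the array's own signals and so moves between groups. The array medians were 19.5 to 26.6 in uninduced cells and 23.8 to 32.8 at 72 h. The median log2 level over the 9 silent Kv subunits was 4.687 in uninduced cells and 4.679 at 72 h, and the median of their log2 differences was -0.188. What part the change in the floor had in their count was not tested. A signal at the floor is a bound on what the array can read, not a measured absence.

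**Figure D1:**
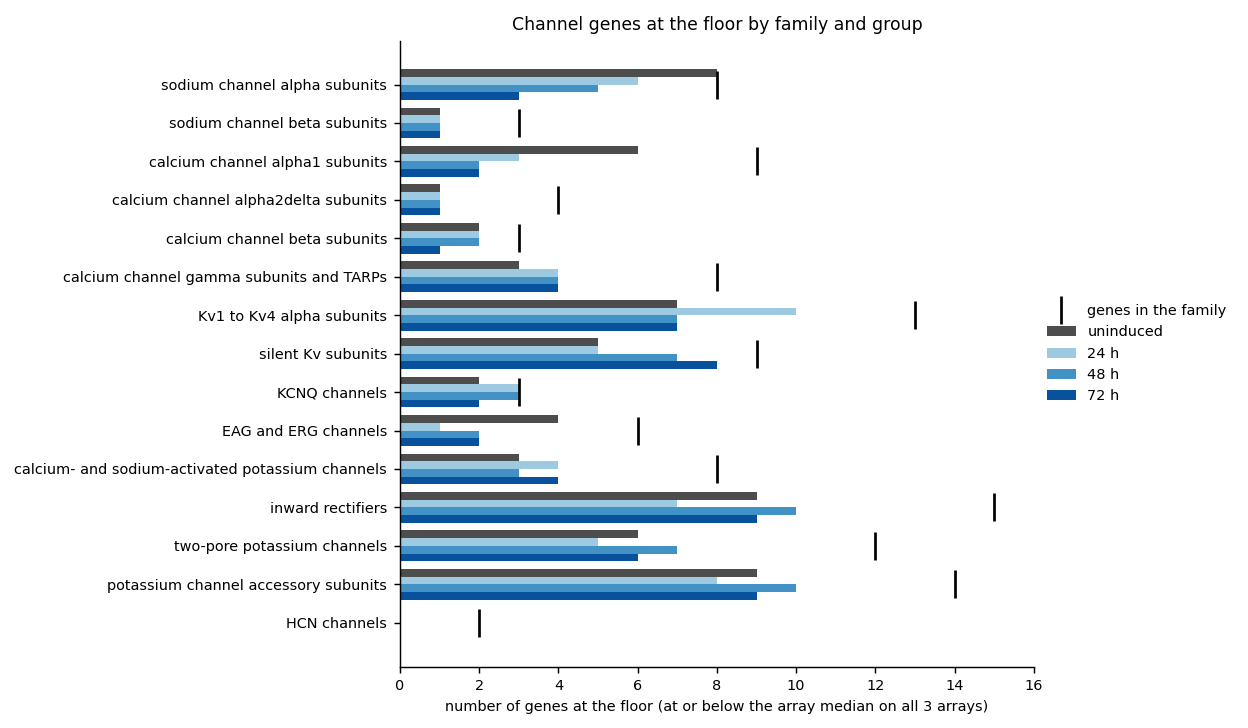
Number of channel genes at the floor (x axis) in each of 15 families (y axis), with 1 bar for each group and a black tick at the number of genes in the family. The bars of the sodium channel alpha subunits shorten from 8 to 3 and those of the calcium channel alpha1 subunits from 6 to 2, while those of the silent Kv subunits lengthen from 5 to 8.

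A gene was tested where its probe set was above the array median on all 3 arrays of at least 1 group, which 44 of the 117 channel genes and 11806 of all 18193 genes passed. A gene that passes only through a group where it is high has to differ, so the share called among tested genes describes the selection as well as the cells. Of the 29 channel genes that rose, only Cacng4, Kcnh2, Kcnh3, Scn2b and Scn3b were above the medians on all 3 uninduced arrays. The other 24 entered the test through induced groups, and 13 of them were at the floor in uninduced cells. In the fit with no filter, which tested all 117 channel genes, 5, 20 and 27 were higher at 24, 48 and 72 h. The share over all genes in that fit is not given, so these counts cannot be set against a background. The 73 channel genes that were not tested are given by their signals only. Differences are on the scale of log2(signal + 16), where the added 16 shrinks the change of dim genes. Scn9a at 72 h, for example, had a difference of 4.44 with 16 added, 5.45 with 1 and 3.16 with 64.

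At 24 h, 6 channel genes rose over the uninduced level and 0 fell at an adjusted p under 0.05 (limma), beside 8.12% of all tested genes higher and 3.18% lower. At 48 h, 21 were higher and 1 was lower, beside 22.6% and 14.0% of all tested genes. By 72 h, 25 were higher and 2 were lower, beside 25.3% and 18.6%. Between consecutive times, 13 rose and 3 fell from 24 to 48 h, beside 10.3% and 7.55%, and 1 rose and 0 fell from 48 to 72 h, beside 0.644% and 0.152%. Over all 117 members, tested or not, the median log2 difference from uninduced cells was 0.02, 0.15 and 0.15 at 24, 48 and 72 h, and over all 18193 genes it was 0.04, 0.02 and 0.01. In bulk RNA, more cells expressing a gene and more RNA per cell cannot be told apart. Counted once, 29 members rose at 48 or 72 h, of which 17 rose at both times, and 2 fell, beside 29.5% of all tested genes higher and 19.8% lower at any of the 3 times. Without the first 24 h array the counts were 9 higher at 24 h, 25 at 48 h and 28 at 72 h, with no share over all genes given for that fit. Quantile normalization of the arrays lowered the median difference over all tested genes from 0.12 to -0.03 at 48 h and from 0.09 to -0.08 at 72 h. For 48 h against 24 h it turned the share of higher genes among all calls from 57.7% to 45.7%. None of the 72 channel calls changed direction under it, and 10 of them were lost, each given with its gene.

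**Figure D2:**
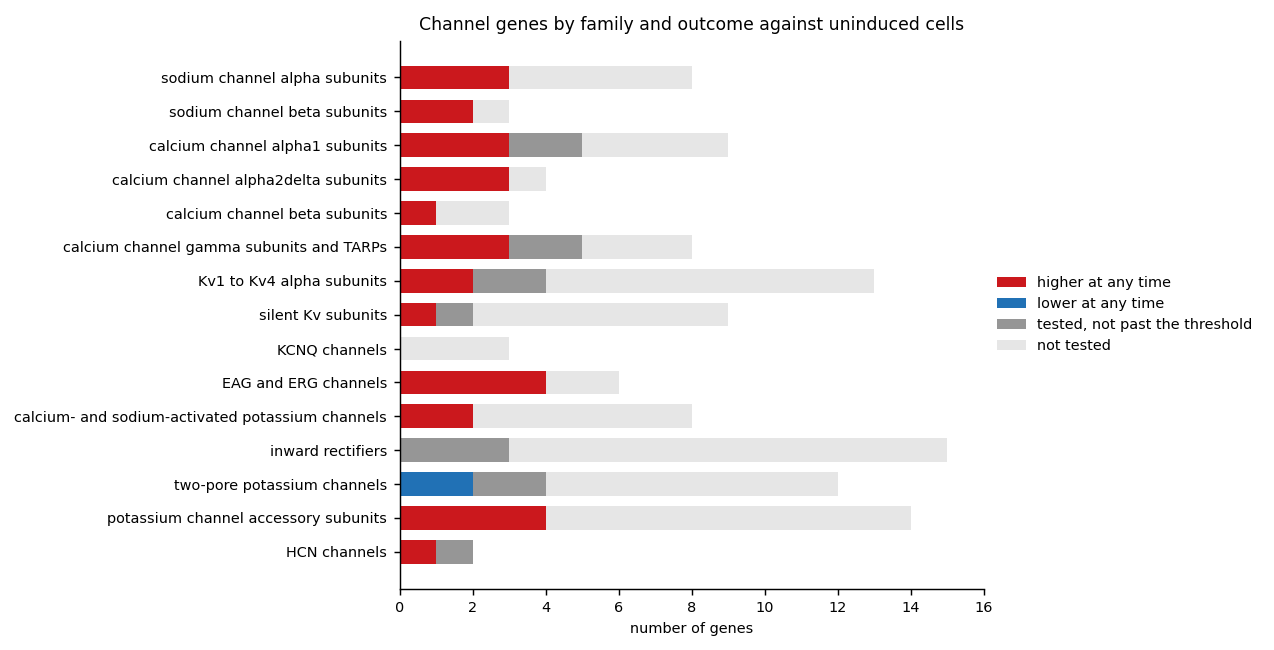
Number of channel genes (x axis) in each family (y axis) by outcome over the 3 comparisons with uninduced cells: higher at any time (red), lower at any time (blue), tested without passing the threshold (dark grey) and not tested (light grey). The 29 higher genes lie in 12 of the 15 families and the 2 lower genes are both two-pore potassium channels.

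The 6 members that rose within 24 h were Kcnip2, Kcnh8, Kcnh1, Scn2b, Kcnmb4 and Cacna1b. They come from 4 families, and the first 3 had the larger differences. Neurog1 binds DNA as a basic helix-loop-helix factor, a class that recognises the E-box CANNTG, so the sequence just upstream of these early genes is shown where it holds one. The promoters are from RefSeq (GRCm38.p6), the 250 bases before the annotated start, 5′ to 3′ on the gene's strand, with every CANNTG match in capitals.

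Scn2b, chr9:45117626-45117875, plus strand: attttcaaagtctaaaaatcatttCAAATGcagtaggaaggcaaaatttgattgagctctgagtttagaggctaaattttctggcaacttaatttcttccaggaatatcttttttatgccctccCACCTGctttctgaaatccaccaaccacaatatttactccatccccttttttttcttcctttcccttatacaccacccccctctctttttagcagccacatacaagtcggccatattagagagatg

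Kcnip2, chr19:45816064-45816313, minus strand: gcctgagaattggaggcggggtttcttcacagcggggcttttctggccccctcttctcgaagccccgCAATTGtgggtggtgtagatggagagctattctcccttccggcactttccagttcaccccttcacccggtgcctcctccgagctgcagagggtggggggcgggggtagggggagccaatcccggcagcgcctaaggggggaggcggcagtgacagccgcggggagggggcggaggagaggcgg

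Cacna1b, chr2:24763153-24763402, minus strand: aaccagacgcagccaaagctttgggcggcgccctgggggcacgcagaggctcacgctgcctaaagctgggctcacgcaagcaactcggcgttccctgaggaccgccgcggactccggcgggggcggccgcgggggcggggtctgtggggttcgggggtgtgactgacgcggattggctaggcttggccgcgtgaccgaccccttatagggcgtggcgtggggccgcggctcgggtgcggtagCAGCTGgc

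Scn2b held 2 matches, at 226 and 126 bases before the start. Kcnip2 held 1 at 183 bases, and Cacna1b held 1, of the form CAGCTG, at 8 bases. The promoters of Kcnh1, Kcnh8 and Kcnmb4 held none, so 3 of the 6 early genes lack the letters in this window. Searched on both strands, CANNTG was in 66.9% of the 124 promoters listed for 89 of the channel genes. It was in 58.6% of the 29 promoters listed for 22 of the channel genes that rose, and in 66.2% of all 32851 promoters. CAGATG, a form that CANNTG includes, was in 14.5%, 10.3% and 14.4%, and CAGCTG, another such form, in 25.8%, 17.2% and 13%. A match is a stretch of letters and not a binding site.

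Kcnip2, which encodes a calcium-binding subunit of the Kv4 channels that carry A-type current, gave signals of 22.01, 40.8 and 38.2 in uninduced cells, 384, 187 and 157 at 24 h, 324, 377 and 228 at 48 h and 192, 211 and 132 at 72 h. The 24 h arrays were all above the uninduced arrays, and the 48 h arrays stayed there. The log2 difference was 2.30 ± 0.33 (SE; adjusted p = 0.00087) at 24 h, 2.71 ± 0.33 (SE; adjusted p = 5.76e-05) at 48 h and 1.97 ± 0.33 (SE; adjusted p = 0.000437) at 72 h. Without the first 24 h array, which held its highest 24 h signal, the 24 h difference was 1.94 (adjusted p = 0.000214, 0.000214 to 0.0194 over all alternatives), and 48 h against 24 h then passed at 0.77 (adjusted p = 0.0466, 0.0317 to 0.74 over all alternatives). Its second readable probe set also went up, with mean signals of 21.6, 120.0, 238 and 132 over the 4 groups. Kcnip3, a related calcium sensor, was a weaker case: its signals were 2.90, 30.2 and 13.3 in uninduced cells, 55.1, 23.5 and 31.02 at 24 h, 53.2, 42.7 and 49.9 at 48 h and 41.1, 44.4 and 26.6 at 72 h. It rose at 48 h (1.13, adjusted p = 0.0148) and at 72 h (0.84, adjusted p = 0.0485). For Kcnip3, the 48 h call was lost on leaving out uninduced replicate 1, or 48 h replicate 1 (adjusted p 0.0517 to 0.0724), and after quantile normalization (adjusted p = 0.0659). For Kcnip3, the 72 h call was lost on leaving out uninduced replicates 1 or 3, or 24 h replicate 3, or any 48 h replicate, or 72 h replicates 1 or 2 (adjusted p 0.0546 to 0.213), and with a pseudocount of 1, with a pseudocount of 64, with no filter, after quantile normalization, with a replicate block or with the filter on any 3 arrays (adjusted p 0.0517 to 0.179). Leaving out the first uninduced array took the 72 h difference of Kcnip3 to 0.52.

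Kcnmb4, the beta subunit that large-conductance calcium-activated potassium channels carry in neurons, had signals of 16.9, 14.3 and 11.8 in uninduced cells, 64.9, 33.04 and 35.1 at 24 h, 178, 161 and 134 at 48 h and 226, 265 and 256 at 72 h. Each later group lay wholly above the one before it. The log2 difference grew from 0.96 ± 0.23 (SE; adjusted p = 0.0194) at 24 h to 2.51 ± 0.23 (SE; adjusted p = 6.95e-06) at 48 h and 3.13 ± 0.23 (SE; adjusted p = 7.43e-07) at 72 h. Without the first 24 h array the 24 h difference was 0.73 (adjusted p = 0.0158, 0.00719 to 0.102 over all alternatives). For Kcnmb4, the 24 h call was lost on leaving out uninduced replicates 2 or 3 (adjusted p 0.0527 to 0.07), and with a pseudocount of 64 or in a fit of the 6 arrays compared alone (adjusted p 0.0751 to 0.102). The other BK beta subunit tested, Kcnmb2, started later, with signals of 17.3, 29.8 and 20.9 in uninduced cells, 17.2, 31.6 and 12.5 at 24 h, 65.6, 73.8 and 69.8 at 48 h and 110.2, 91.9 and 205 at 72 h. The uninduced and 24 h arrays overlapped, and the difference reached 1.16 ± 0.29 (SE; adjusted p = 0.00702) at 48 h and 1.91 ± 0.29 (SE; adjusted p = 0.000182) at 72 h. Kcnma1, the pore that both subunits join, was too low to test, and so were 10 accessory subunits, the Kcnab, Kcne, Kcnip1, Kcnip4 and Kcnmb1 genes.

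All 4 tested members of the ether-à-go-go group rose, out of 6, beside 29.5% of all tested genes higher at any of the 3 times. Kcnh1 and Kcnh8 entered the test through induced groups, so that count also describes the selection. Kcnh1, the founding EAG channel, had signals of 15.2, 14.97 and 25.4 in uninduced cells, 84.4, 70.96 and 73.03 at 24 h, 222, 189 and 179 at 48 h and 223, 210.4 and 187 at 72 h. Uninduced, 24 h and 48 h arrays did not overlap, while those of 48 and 72 h did. Its difference was 1.43 ± 0.20 (SE; adjusted p = 0.000845) at 24 h, 2.63 ± 0.20 (SE; adjusted p = 1.95e-06) at 48 h and 2.70 ± 0.20 (SE; adjusted p = 8.73e-07) at 72 h. With the first 24 h array left out, the 24 h value was 1.36 (adjusted p = 0.000399, 0.000399 to 0.0216 over all alternatives). Kcnh8, of the ELK branch, had signals of 1.52, 11.8 and 1.43 in uninduced cells, 82.4, 111 and 22.5 at 24 h, 89.98, 92.1 and 58.6 at 48 h and 143, 134 and 118 at 72 h, so that it was at the floor in uninduced cells and already near its later level on 2 of the 3 arrays at 24 h. The differences were 1.94 ± 0.38 (SE; adjusted p = 0.00582), 2.22 ± 0.38 (SE; adjusted p = 0.000656) and 2.85 ± 0.38 (SE; adjusted p = 7.29e-05) at 24, 48 and 72 h, and without the first 24 h array the first was 1.78 (adjusted p = 0.00653, 0.000325 to 0.0322 over all alternatives). Kcnh2, the ERG channel that repolarises the heart, was readable in uninduced cells, with signals of 59.8, 70.96 and 46.6 in uninduced cells, 99.8, 49.3 and 58.9 at 24 h, 133, 121 and 90.3 at 48 h and 152, 127 and 106 at 72 h. It rose at 48 h (0.80, adjusted p = 0.0303) and 72 h (0.94, adjusted p = 0.0109). Kcnh3, an ELK channel of the forebrain, had signals of 31.6, 33.1 and 37.5 in uninduced cells, 53.5, 59.3 and 21.95 at 24 h, 103, 111 and 53.1 at 48 h and 68.8, 71.5 and 39.5 at 72 h. It rose at 48 h, by 1.02 ± 0.32 (SE; adjusted p = 0.0234), and was 0.57 ± 0.32 (SE; adjusted p = 0.16) at 72 h, where it did not pass. For Kcnh2, the 48 h call was lost on leaving out uninduced replicates 1 or 3, or 48 h replicates 1 or 2 (adjusted p 0.0699 to 0.111), and with no filter or after quantile normalization (adjusted p 0.056 to 0.251). For Kcnh2, the 72 h call was lost on leaving out 72 h replicate 1 (adjusted p = 0.0517), and after quantile normalization (adjusted p = 0.129). For Kcnh3, the 48 h call was lost on leaving out uninduced replicates 1 or 2, or 48 h replicates 1 or 2 (adjusted p 0.0597 to 0.0965), and after quantile normalization or with the mean of all its probe sets (adjusted p 0.103 to 0.175). For 48 h against 24 h, Kcnh3 passed with a replicate block (0.80, adjusted p = 0.0412, 0.0148 to 0.385 over all alternatives), with array weights (0.0148) and without 48 h replicate 3 (0.0499). It did not pass otherwise. Kcnh5 and Kcnh7 were too low to test.

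Among sodium channels, the 3 tested alpha subunits of 8 all rose at 48 and 72 h, beside 22.6% and 25.3% of all tested genes. All 8 were at the floor in uninduced cells, so the 3 could enter the test only through induced groups. That count therefore describes the selection as well as the cells. Scn9a, which encodes the channel of peripheral sensory and sympathetic neurons, had signals of 7.64, 14.02 and 22.8 in uninduced cells, 10.1, 10.3 and 10.5 at 24 h, 209, 294 and 87.4 at 48 h and 871, 752 and 393 at 72 h. No 24 h array stood above the uninduced arrays, and every 48 h array did. The log2 difference was -0.20 ± 0.39 (SE; adjusted p = 0.774) at 24 h, 2.68 ± 0.39 (SE; adjusted p = 0.000202) at 48 h and 4.44 ± 0.39 (SE; adjusted p = 2.65e-06) at 72 h. All 4 of its other probe sets also had their highest mean at 72 h; the probe set used is of the _x_at kind, which can also read related transcripts. The step from 48 to 72 h was 1.76 ± 0.39 (SE; adjusted p = 0.0596), and without the first 24 h array its adjusted p was 0.0204 (0.000112 to 0.283 over all alternatives).

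Scn3a, the sodium channel best known from embryonic brain, was the only channel gene that passed for 72 h against 48 h. Its signals were 8.11, 17.8 and 13.2 in uninduced cells, 10.4, 32.2 and 19.2 at 24 h, 62.4, 102 and 38.0 at 48 h and 294, 212 and 174 at 72 h. The 72 h arrays lay above all others. Against uninduced cells the difference was 1.46 ± 0.32 (SE; adjusted p = 0.00342) at 48 h and 3.05 ± 0.32 (SE; adjusted p = 1.17e-05) at 72 h, and the steps were 1.16 ± 0.32 (SE; adjusted p = 0.025) from 24 to 48 h and 1.58 ± 0.32 (SE; adjusted p = 0.0407) from 48 to 72 h. For Scn3a, the 48 h call was lost with the mean of all its probe sets (adjusted p = 0.0564). For Scn3a, the 48 h against 24 h call was lost on leaving out 48 h replicates 1 or 2 (adjusted p 0.0755 to 0.116), and after quantile normalization, with the mean of all its probe sets or in a fit of the 6 arrays compared alone (adjusted p 0.0563 to 0.0905). For Scn3a, the 72 h against 48 h call was lost on leaving out any uninduced replicate, or 24 h replicate 3, or 48 h replicates 1 or 3, or any 72 h replicate (adjusted p 0.0511 to 0.234), and with a pseudocount of 1, with no filter, with the filter at percentile 75 or with the mean of all its probe sets (adjusted p 0.0586 to 0.232). Its other probe set was below the array medians in every group and had means of 12 in uninduced cells and 3.26 at 72 h. Scn8a, the main channel of mature axon initial segments and nodes, had signals of 2.32, 13.4 and 12.6 in uninduced cells, 17.7, 51.2 and 39.5 at 24 h, 147, 117 and 102 at 48 h and 159.8, 152 and 63.9 at 72 h. It gave 1.01 ± 0.35 (SE; adjusted p = 0.0843) at 24 h, where it did not pass with all 3 arrays and was 1.30 (adjusted p = 0.0136, 0.0136 to 0.643 over all alternatives) without the first. The differences at 48 and 72 h were 2.46 ± 0.35 (SE; adjusted p = 0.000168) and 2.42 ± 0.35 (SE; adjusted p = 0.000138), with a step from 48 to 72 h of -0.04. From 24 to 48 h Scn8a rose by 1.45 ± 0.35 (SE; adjusted p = 0.0123). For Scn8a, the 48 h against 24 h call was lost on leaving out 48 h replicate 1 (adjusted p = 0.0595), and with a pseudocount of 1 (adjusted p = 0.0561). Scn1a, Scn2a, Scn7a, Scn10a and Scn11a were too low to test.

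The beta subunits, which anchor and modulate the alpha subunits, differed from each other in time. Scn2b had signals of 40.3, 40.8 and 38.4 in uninduced cells, 129.8, 88.4 and 139.9 at 24 h, 62.1, 57.3 and 44.2 at 48 h and 109.9, 104 and 77.1 at 72 h. It was high at 24 h, closer to the uninduced arrays at 48 h and high again at 72 h. The differences were 1.26 ± 0.22 (SE; adjusted p = 0.00354), 0.33 ± 0.22 (SE; adjusted p = 0.276) and 1.01 ± 0.22 (SE; adjusted p = 0.00292), and it fell from 24 to 48 h by 0.93 (adjusted p = 0.0125). Without the first 24 h array the 24 h difference was 1.19 (adjusted p = 0.00278, 0.00242 to 0.229 over all alternatives). For Scn2b, the 24 h call was lost with the mean of all its probe sets (adjusted p = 0.229). For Scn2b, the 72 h call was lost with the mean of all its probe sets (adjusted p = 0.434). For Scn2b, the 48 h against 24 h call was lost on leaving out 48 h replicate 3 (adjusted p = 0.0566), and with the mean of all its probe sets or in a fit of the 6 arrays compared alone (adjusted p 0.0735 to 0.111). Scn3b was read in uninduced cells too, with signals of 43.1, 38.1 and 64.03 in uninduced cells, 28.2, 39.8 and 37.9 at 24 h, 66.8, 62.96 and 72.7 at 48 h and 188, 226 and 117 at 72 h, and its 72 h arrays lay above all uninduced arrays. It rose at 72 h by 1.56 ± 0.25 (SE; adjusted p = 0.000326), and the step from 48 to 72 h was 1.17 ± 0.25 (SE; adjusted p = 0.0558), which passed without the first 24 h array (adjusted p = 0.0148, 9.81e-06 to 0.282 over all alternatives). Scn4b was too low to test.

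**Figure D3:**
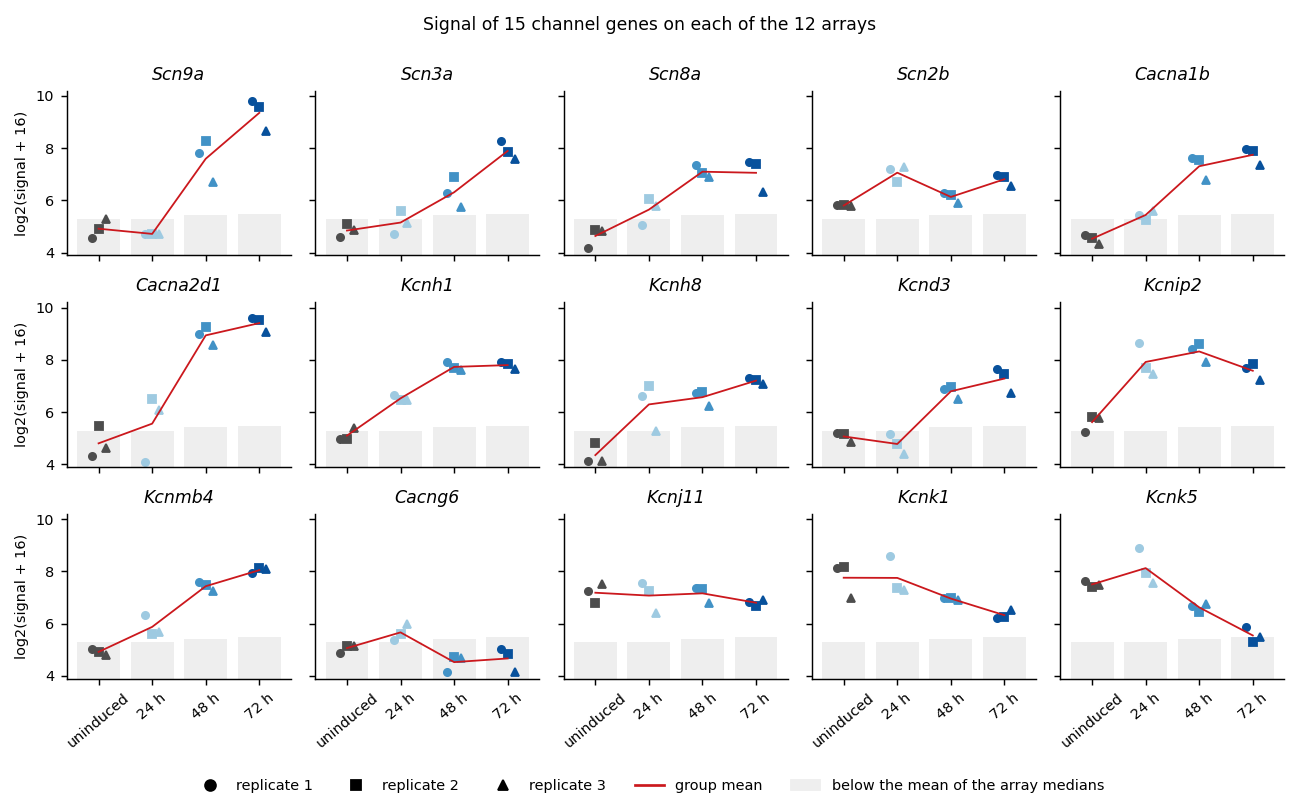
Level on the log2(signal + 16) scale (y axis) of 15 channel genes on each array, by group (x axis). Symbols mark the replicate number, red lines join the group means and grey bars reach to the mean of the array medians. Scn9a climbs out of the grey area between 24 and 48 h. At 24 h Cacna2d1 has only the first 24 h array in the grey area, and at 48 h it has none there. The group means of Kcnip2, Kcnh1 and Kcnh8 are above the grey area by 24 h, Kcnj11 keeps its level and Kcnk1 and Kcnk5 go down.

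Of the calcium channel alpha1 subunits, which form the pore, 5 of 9 were tested and 3 rose. Cacna1b, the pore of the N-type channel of presynaptic terminals, had signals of 9.88, 7.77 and 4.08 in uninduced cells, 27.98, 22.5 and 32.5 at 24 h, 179, 169 and 94.1 at 48 h and 236, 223 and 148 at 72 h. All groups were separate apart from 48 and 72 h, which overlapped. The difference was 0.91 ± 0.27 (SE; adjusted p = 0.0437) at 24 h, 2.78 ± 0.27 (SE; adjusted p = 8.78e-06) at 48 h and 3.22 ± 0.27 (SE; adjusted p = 1.65e-06) at 72 h. Without the first 24 h array the 24 h value was 0.90 (adjusted p = 0.0341, 0.00823 to 0.229 over all alternatives). Each of its 3 other probe sets had its lowest mean in uninduced cells and its highest at 72 h. For Cacna1b, the 24 h call was lost on leaving out any uninduced replicate, or 24 h replicates 2 or 3, or 48 h replicates 1 or 2, or 72 h replicates 1 or 2 (adjusted p 0.0542 to 0.138), and with a pseudocount of 64, with no filter or with the mean of all its probe sets (adjusted p 0.0809 to 0.229).

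Cacna1e, the pore of the R-type channel, had signals of 3.14, 2.13 and 21.3 in uninduced cells, 6.84, 2.12 and 2.12 at 24 h, 26.1, 57.6 and 24.0 at 48 h and 83.7, 77.1 and 84.9 at 72 h, with the 72 h arrays close together and above all others. It rose by 1.09 ± 0.31 (SE; adjusted p = 0.0142) at 48 h and 2.06 ± 0.31 (SE; adjusted p = 0.00017) at 72 h. Cacna1c, the pore of the L-type channel of heart and brain, had signals of 2.60, 1.18 and 27.1 in uninduced cells, 8.997, 6.85 and 1.65 at 24 h, 39.9, 20.0 and 26.02 at 48 h and 55.1, 56.6 and 45.3 at 72 h and rose at 72 h, by 1.51 ± 0.33 (SE; adjusted p = 0.00239). The uninduced replicate 3 of both genes was well above the other 2. From 24 to 48 h Cacna1c rose by 1.02 ± 0.33 (SE; adjusted p = 0.0463). For Cacna1e, the 48 h call was lost on leaving out uninduced replicates 1 or 2, or 48 h replicate 2 (adjusted p 0.0614 to 0.0721). For Cacna1c, the 48 h against 24 h call was lost on leaving out uninduced replicate 1, or 24 h replicates 2 or 3, or any 48 h replicate, or any 72 h replicate (adjusted p 0.0517 to 0.169), and with a pseudocount of 1, with no filter, after quantile normalization, with a replicate block or with the filter on any 3 arrays (adjusted p 0.0528 to 0.0893). Cacna1h, a T-type pore, missed the threshold at 48 h (1.19, adjusted p = 0.0591) and 72 h (1.14, adjusted p = 0.059). It passed with a replicate block (adjusted p = 0.048 and 0.0474) and without the first 24 h array (0.034 and 0.0361), with ranges over all alternatives of 0.0047 to 0.227 and 0.000283 to 0.226. Cacna1a, the P/Q-type pore, did not pass at any time (-0.33, -0.28 and -0.36). Cacna1g, another T-type pore, was too low to test, although its signals of 6.97, 1.25 and 16 in uninduced cells became 48.2, 27.6 and 26.2 at 72 h.

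The alpha2delta subunits, extracellular proteins that raise the number of channels at the surface, rose in all 3 tested genes of 4. All 3 entered the test through induced groups, so this count also describes the selection. Cacna2d1, the binding site of gabapentin, had the largest log2 difference among the 44 tested channel genes at 72 h, with signals of 3.86, 28.4 and 8.60 in uninduced cells, 1.05, 73.8 and 51.95 at 24 h, 496, 591 and 361 at 48 h and 757, 728 and 525 at 72 h. Every 48 and 72 h array was far above the uninduced arrays. At 24 h its first array was low and the other 2 were above all uninduced arrays, which gave 0.75 ± 0.51 (SE; adjusted p = 0.381) with 3 arrays and 1.49 (adjusted p = 0.00445, 0.00445 to 0.733 over all alternatives) without the first. The differences at 48 and 72 h were 4.13 ± 0.51 (SE; adjusted p = 6.52e-05) and 4.60 ± 0.51 (SE; adjusted p = 1.88e-05). For 48 h against 24 h the difference was 3.38 ± 0.51 (SE; adjusted p = 0.000826). Cacna2d3 had signals of 14.3, 5.64 and 1.37 in uninduced cells, 14.01, 30.2 and 31.4 at 24 h, 62.2, 55.9 and 40.4 at 48 h and 117, 85.3 and 117 at 72 h and rose by 1.60 ± 0.27 (SE; adjusted p = 0.000602) at 48 h and 2.43 ± 0.27 (SE; adjusted p = 1.79e-05) at 72 h, with 1.06 (adjusted p = 0.0126, 0.0126 to 0.21 over all alternatives) at 24 h without the first array, against 0.84 (adjusted p = 0.0635) with it. Cacna2d2 was highest at 48 h, with signals of 20.3, 39.7 and 73.5 in uninduced cells, 69.5, 88.98 and 68.8 at 24 h, 181, 146 and 189 at 48 h and 113, 85.6 and 58.5 at 72 h. It rose at 48 h by 1.73 ± 0.31 (SE; adjusted p = 0.001), and at 72 h it was 0.81 ± 0.31 (SE; adjusted p = 0.0522), which passed without the first 24 h array (adjusted p = 0.0296, 0.00195 to 0.271 over all alternatives). Its rise from 24 to 48 h was 1.04 ± 0.31 (SE; adjusted p = 0.0379). For Cacna2d2, the 48 h against 24 h call was lost on leaving out uninduced replicate 2, or 24 h replicate 3, or any 48 h replicate, or 72 h replicate 2 (adjusted p 0.0547 to 0.118), and with a pseudocount of 1, with no filter or after quantile normalization (adjusted p 0.0634 to 0.12).

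Among the gamma subunits, which include the TARPs that bring AMPA receptors to synapses, 5 of 8 were tested and 3 rose, all TARPs. Cacng5 had signals of 4.79, 2.18 and 11.4 in uninduced cells, 13.2, 17.4 and 8.73 at 24 h, 30.4, 43.01 and 22.2 at 48 h and 87.8, 62.5 and 45.96 at 72 h and rose by 1.11 ± 0.26 (SE; adjusted p = 0.00521) at 48 h and 1.87 ± 0.26 (SE; adjusted p = 0.000108) at 72 h. Cacng2, or stargazin, had signals of 2.67, 23.2 and 4.20 in uninduced cells, 17.9, 5.38 and 15.1 at 24 h, 40.4, 34.3 and 15.5 at 48 h and 105, 97.7 and 36.4 at 72 h and rose at 72 h by 1.87 ± 0.38 (SE; adjusted p = 0.00173). Cacng4 had signals of 40.8, 30.8 and 40.5 in uninduced cells, 34.2, 29.8 and 23.96 at 24 h, 87.3, 78.3 and 40.4 at 48 h and 148, 123 and 64.2 at 72 h and rose at 72 h by 1.20 ± 0.30 (SE; adjusted p = 0.00581). The 72 h arrays of all 3 genes were above every uninduced array. For 48 h against 24 h, Cacng4 was 0.86 ± 0.30 (SE; adjusted p = 0.0643) and passed with a replicate block (adjusted p = 0.031) and without the first 24 h array (0.0483), with a range of 0.0151 to 0.219 over all alternatives. Cacng7, another TARP, did not pass: its signals were 23.98, 76.7 and 109.6 in uninduced cells, 102, 56.4 and 90.5 at 24 h, 50.1, 45.3 and 55.3 at 48 h and 55.3, 44.7 and 45.2 at 72 h, and its differences were 0.32, -0.23 and -0.27. Cacng6, a relative of the skeletal muscle gamma subunit, had signals of 13.6, 19.6 and 19.6 in uninduced cells, 26.03, 33.2 and 47.4 at 24 h, 1.73, 10.6 and 9.95 at 48 h and 16.4, 12.5 and 1.80 at 72 h. Its 24 h arrays were above and its 48 h arrays below all uninduced arrays, and it fell from 24 to 48 h by 1.14 (SE 0.27; adjusted p = 0.0115), while neither time passed against uninduced cells. Cacng6 entered the test only through its 24 h arrays, where it was high, and its 48 and 72 h signals were below the array medians. The 48 h and uninduced arrays of its second probe set overlapped. For Cacng6, the 48 h against 24 h call was lost on leaving out 48 h replicate 1 (adjusted p = 0.0624), and with a pseudocount of 1 (adjusted p = 0.0544). Cacnb1, the one beta subunit tested of 3, had signals of 50.2, 20.6 and 21.4 in uninduced cells, 28.3, 23.8 and 7.26 at 24 h, 63.3, 59.8 and 29.1 at 48 h and 143, 91.7 and 35.3 at 72 h. The groups overlapped, and the 72 h difference was 1.09 ± 0.42 (SE; adjusted p = 0.0498). For Cacnb1, the 72 h call was lost on leaving out uninduced replicates 2 or 3, or 24 h replicate 2, or any 48 h replicate, or 72 h replicates 1 or 2 (adjusted p 0.0502 to 0.212), and with a pseudocount of 1, with no filter, after quantile normalization or with the filter on any 3 arrays (adjusted p 0.0524 to 0.123). Leaving out 72 h replicate 1 took the difference of Cacnb1 to 0.73. Another of its probe sets was readable and went the other way, with means of 33.9 in uninduced cells and 19.0 at 72 h. For 48 h against 24 h it passed with a replicate block (0.91, adjusted p = 0.027, 0.027 to 0.335 over all alternatives) and with array weights (0.034), and otherwise did not (adjusted p = 0.15 with neither).

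Of the 13 Kv1 to Kv4 alpha subunits, 4 were tested and 2 rose. Kcnd3, a Kv4 pore that pairs with the Kcnip subunits, had signals of 20.4, 19.5 and 13.1 in uninduced cells, 19.6, 11.7 and 4.90 at 24 h, 103, 109.6 and 75.4 at 48 h and 186, 159 and 90.1 at 72 h. Uninduced and 24 h arrays overlapped and all 48 and 72 h arrays were above both. It rose by 1.73 ± 0.28 (SE; adjusted p = 0.000491) at 48 h and 2.22 ± 0.28 (SE; adjusted p = 5.36e-05) at 72 h, and the step from 24 to 48 h was 2.02 ± 0.28 (SE; adjusted p = 0.000483). Kcnc1, the Kv3 channel of fast-spiking neurons, had signals of 30.3, 0.974 and 14.4 in uninduced cells, 10.5, 13.7 and 9.18 at 24 h, 78.1, 92.6 and 66.3 at 48 h and 118, 109 and 79.3 at 72 h, with no overlap between its 24 and 48 h arrays. It rose by 1.71 ± 0.31 (SE; adjusted p = 0.00105) and 2.02 ± 0.31 (SE; adjusted p = 0.000234). The related Kv4 pore Kcnd1 was readable in every group and did not pass at any time: its signals were 88.1, 60.8 and 66.6 in uninduced cells, 114, 87.97 and 56.7 at 24 h, 68.2, 82.6 and 59.3 at 48 h and 98.3, 96.2 and 59.4 at 72 h, and its differences were 0.19, -0.03 and 0.18. Kcna7 did not pass either, and Kcna1 to Kcna6, Kcnc2, Kcnc4 and Kcnd2 were too low to test on the probe set used. Another probe set of Kcna6 was readable, with mean signals of 7.59, 18.8, 11.5 and 41.2 over the 4 groups. Its 72 h arrays gave 32.7 to 49.4, and it was not tested.

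Silent Kv subunits make no current alone and modify Kv2 channels. Kcng1 rose at 48 h by 1.12 ± 0.27 (SE; adjusted p = 0.00665), with signals of 24.2, 8.44 and 10.3 in uninduced cells, 55.2, 28.9 and 21.2 at 24 h, 61.9, 44.7 and 40.5 at 48 h and 32.3, 31.4 and 29.9 at 72 h, in which every 48 and 72 h array was above the uninduced arrays. At 24 h (0.74, adjusted p = 0.107) and 72 h (0.67, adjusted p = 0.0635) it missed the threshold, and passed with a replicate block (adjusted p = 0.0451 and 0.0246) and, at 72 h, without the first 24 h array (0.0245), without uninduced replicate 1 (0.0293), with array weights (0.00405) or with a pseudocount of 1 (0.0469); over all alternatives the ranges were 0.0451 to 0.304 and 0.00405 to 0.213. Without the first 24 h array, which held the highest 24 h signal of Kcng1, its 24 h difference was 0.47 (adjusted p = 0.222). Kcns2 did not pass, although quantile normalization brought 48 h against 24 h to -1.06 (adjusted p = 0.0429, 0.0302 to 0.28 over all alternatives). All 3 KCNQ genes were too low to test. Kcnq1 had signals of 23.3, 12.1 and 10.5 in uninduced cells, 7.97, 10.8 and 2.12 at 24 h, 6.61, 3.43 and 8.04 at 48 h and 4.83, 10.7 and 6.31 at 72 h. Kcnq5, a subunit of the neuronal M-current, had 2.33, 1.71 and 1.66 in uninduced cells and 64.1, 32.8 and 21.1 at 72 h. No channel gene that was not tested exceeded 64.1 on any array.

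Both sodium-activated channels rose, each at a single time. Both were at the floor in uninduced cells and entered the test through induced groups, so this count also describes the selection. Kcnt2 had signals of 15.8, 11.9 and 10.6 in uninduced cells, 3.88, 13.6 and 26.2 at 24 h, 31.2, 26.9 and 27.4 at 48 h and 56.9, 44.5 and 28.7 at 72 h and rose at 72 h by 1.02 ± 0.28 (SE; adjusted p = 0.00921); at 48 h it was 0.63 (adjusted p = 0.0905), which passed without the first 24 h array (adjusted p = 0.0361, 0.0189 to 0.201 over all alternatives). Kcnt1 had signals of 19.9, 17.4 and 21.8 in uninduced cells, 20.3, 18.8 and 21.7 at 24 h, 43.4, 37.03 and 33.5 at 48 h and 42.9, 23.8 and 24.9 at 72 h and rose at 48 h by 0.59 ± 0.21 (SE; adjusted p = 0.0382). For Kcnt1, the 48 h call was lost on leaving out any uninduced replicate, or any 48 h replicate (adjusted p 0.0577 to 0.125), and with a pseudocount of 1, with no filter or after quantile normalization (adjusted p 0.0538 to 0.0986). The small-conductance channels Kcnn1 to Kcnn4 were too low to test. Both HCN genes were tested. Hcn3 had signals of 17.4, 6.84 and 28.9 in uninduced cells, 69.3, 29.8 and 5.11 at 24 h, 57.8, 77.8 and 42.2 at 48 h and 113, 91.3 and 42.3 at 72 h and rose at 72 h by 1.52 ± 0.46 (SE; adjusted p = 0.0175). It was 1.19 at 48 h (adjusted p = 0.0612), which passed with a replicate block (adjusted p = 0.044) and without the first 24 h array (0.0143; 0.00122 to 0.195 over all alternatives). Hcn2 had differences of -0.01, 0.03 and -0.20, and did not pass. For Hcn3, the 72 h call was lost on leaving out uninduced replicate 2, or 72 h replicates 1 or 2 (adjusted p 0.0596 to 0.0757).

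Inward rectifiers and two-pore channels set the resting potential, and neither family held a gene that rose. Of 15 inward rectifiers, 3 were tested and 0 passed at any of the 3 times. Kcnj11, the pore of the ATP-sensitive potassium channel, kept a readable level, with signals of 137, 93.7 and 167 in uninduced cells, 174, 137 and 68.03 at 24 h, 149, 143 and 95.4 at 48 h and 96.6, 85.6 and 105 at 72 h and differences of -0.11 ± 0.31, -0.02 and -0.38 (adjusted p = 0.85, 0.963 and 0.347). The groups overlapped. Kcnj3, a G-protein-gated rectifier, was -0.32 at 72 h and Kcnj10, a glial rectifier, -0.50. Quantile normalization brought Kcnj10 at 72 h to -0.70 (adjusted p = 0.0471, 0.0118 to 0.289 over all alternatives).

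The 2 channel genes that fell were both two-pore channels, out of 4 tested and 12 in the family. Kcnk5, an alkaline-activated background channel, had signals of 182, 154 and 161 in uninduced cells, 461, 227 and 173 at 24 h, 86.8, 70.7 and 91.4 at 48 h and 41.8, 23.3 and 29.1 at 72 h. All 3 of its 24 h arrays were above those of 48 h, and its 72 h arrays were the lowest. It fell by 0.88 (adjusted p = 0.0394) at 48 h and by 1.96 (adjusted p = 0.000257) at 72 h, with an SE of 0.31, and from 24 to 48 h by 1.50 (adjusted p = 0.00492). From 48 to 72 h it was -1.07 ± 0.31 (SE; adjusted p = 0.162), which passed without the first 24 h array (adjusted p = 0.0088, 6.99e-05 to 0.539 over all alternatives). For Kcnk5, the 48 h call was lost on leaving out any uninduced replicate, or any 48 h replicate, or 72 h replicates 2 or 3 (adjusted p 0.0517 to 0.126), and with a pseudocount of 64, with no filter or with the mean of all its probe sets (adjusted p 0.05 to 0.0719). For Kcnk5, the 48 h against 24 h call was lost in a fit of the 6 arrays compared alone (adjusted p = 0.0505). Kcnk1, a weakly conducting background channel, had signals of 264, 268 and 111 in uninduced cells, 371, 148 and 142 at 24 h, 111, 109 and 105 at 48 h and 57.8, 60.3 and 75.3 at 72 h. It fell by 1.43 (SE 0.37; adjusted p = 0.00731) at 72 h, where all arrays were below the uninduced ones, and was -0.80 (adjusted p = 0.112) at 48 h. That 48 h value passed without the first 24 h array (adjusted p = 0.0189) and after quantile normalization (-1.08, adjusted p = 0.0387), with a range of 0.00372 to 0.309 over all alternatives. Both genes had a second readable probe set that was also lowest at 72 h. Kcnk6 was -0.65 at 72 h (adjusted p = 0.167), and passed with a replicate block (adjusted p = 0.0464) and after quantile normalization (-1.04, adjusted p = 0.0426; 0.00791 to 0.388 over all alternatives). Kcnk2, a mechanosensitive background channel, was 0.06.

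**Figure D4:**
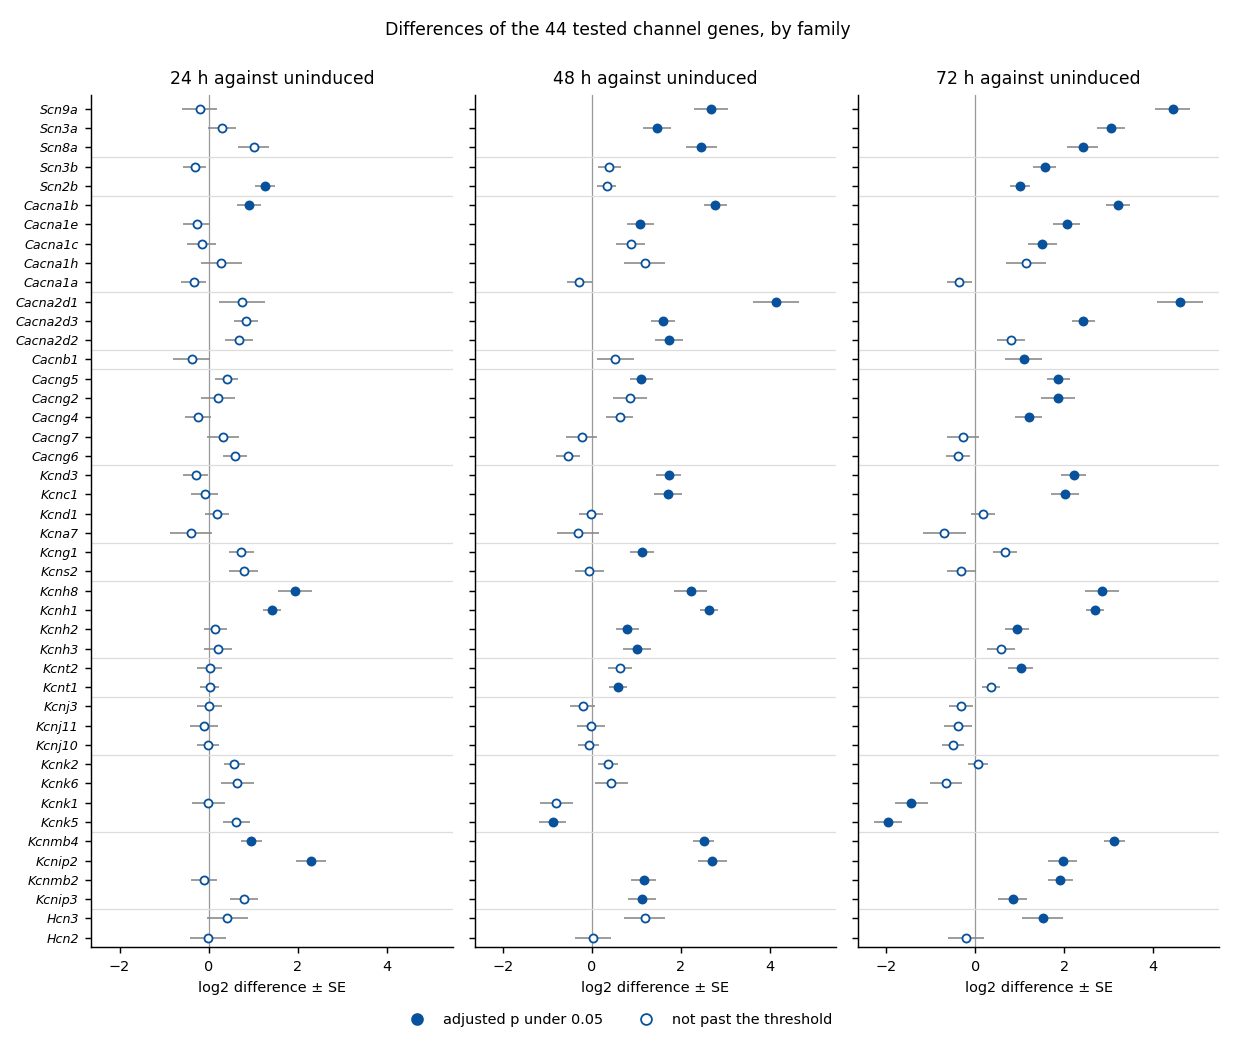
Log2 difference from uninduced cells with its SE (x axis) for the 44 tested channel genes (y axis, grouped by family) at 24, 48 and 72 h. Filled points passed an adjusted p of 0.05: 6 at 24 h, 22 at 48 h and 27 at 72 h, of which Kcnk5 at 48 h and Kcnk1 and Kcnk5 at 72 h lie below 0.

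Probe sets of the same gene mostly moved together where they could be read. Of the 27 members called at 72 h, 21 had more than 1 probe set. In 11 of these every other readable probe set had the same sign, in 1 (Cacnb1) a readable probe set had the opposite sign, and in 9 no other probe set was above the array medians. At 48 h the counts were 10, 0 and 8 of 18. For genes of the last kind the call rests on 1 probe set.

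Genes outside the families that place, leak or oppose these currents were counted over the 3 times in the same way, and each count below stands beside the 29.5% of all tested genes that were higher and the 19.8% that were lower. Cntn1, Nalcn, Fam155a, Slc24a3 and Atp2b3, among others, were at the floor in uninduced cells and entered the test through induced groups. The counts of rises below therefore describe that selection as well as the cells. Of 27 partners and scaffolds of channels, 16 were tested, and 13 rose and 1 fell. The median log2 difference at 72 h over all 27 was 0.79, beside 0.01 over all 18193 genes. Ank3, the ankyrin that clusters sodium channels at the axon initial segment, had signals of 55.9 to 61.0 in uninduced cells and 1220 to 2510 at 72 h and rose by 4.62 ± 0.35 (SE; adjusted p = 8.73e-07) at 72 h. Cntn1, a contactin that associates with sodium channels, had 5.24 to 23.3 in uninduced cells and 746 to 769 at 72 h and rose by 4.78 ± 0.34 (SE; adjusted p = 6.23e-07). Sptbn4, a beta spectrin of the initial segment, had 86.6 to 156 in uninduced cells and 34.3 to 48.1 at 72 h and fell by 1.15 (adjusted p = 0.0474) at 72 h. In the sodium leak complex, which supplies a resting sodium current, all 3 tested genes of 4 rose, and the median over the 4 was 1.30 at 72 h. Nalcn, its pore, had 10.1 to 24.5 in uninduced cells and 214 to 284 at 72 h and rose by 3.07 ± 0.39 (SE; adjusted p = 5.14e-05). Fam155a, an accessory subunit, had 0.641 to 14.8 in uninduced cells and 44.7 to 91.8 at 72 h and rose by 1.82 ± 0.32 (SE; adjusted p = 0.000635). Of 12 pumps and exchangers, 8 were tested, 5 rose and 1 fell, with a median over all 12 of 0.81. Slc24a3, a potassium-dependent sodium/calcium exchanger, had 5.99 to 16.2 in uninduced cells and 162 to 194 at 72 h and rose by 2.89 ± 0.21 (SE; adjusted p = 6.71e-07), and Atp2b3, a plasma membrane calcium pump, rose by 2.59 ± 0.37 (SE; adjusted p = 0.000132). Atp1b2, a subunit of the sodium pump, fell by 0.76 (adjusted p = 0.041). For Sptbn4, the 72 h call was lost on leaving out any uninduced replicate, or 24 h replicate 2, or any 48 h replicate, or any 72 h replicate (adjusted p 0.0569 to 0.166), and with a pseudocount of 64, with no filter or with a replicate block (adjusted p 0.0592 to 0.0859). For Atp1b2, the 72 h call was lost on leaving out any uninduced replicate, or 24 h replicate 2, or 48 h replicates 1 or 2, or 72 h replicates 2 or 3 (adjusted p 0.0512 to 0.17), and with a pseudocount of 1, with no filter or with the mean of all its probe sets (adjusted p 0.0569 to 0.158). Leaving out 72 h replicate 3 took the difference of Atp1b2 to -0.45.

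Of 11 chloride transporters and channels, 10 were tested and 3 rose, close to the share of all tested genes (median 0.32 over the 11 at 72 h), led by Clcn4 with 18.7 to 36.6 in uninduced cells and 337 to 459 at 72 h and a difference of 3.26 ± 0.34 (SE; adjusted p = 1.03e-05), and Clcn6 with 1.74 ± 0.25 (SE; adjusted p = 0.000116); both encode chloride/proton exchangers of endosomes and lysosomes. Of 11 genes of intracellular calcium release, 9 were tested, 1 rose and 3 fell, beside 29.5% and 19.8% (median -0.08 over the 11). Stim2, a sensor of calcium in the endoplasmic reticulum, rose by 0.81 ± 0.24 (SE; adjusted p = 0.015). Itpr3, a calcium release channel, had 82.2 to 151 in uninduced cells and 21.4 to 49.3 at 72 h and fell by 1.40 (adjusted p = 0.00193), and Atp2a3, a calcium pump of the endoplasmic reticulum, fell by 0.82 (adjusted p = 0.0267). For Stim2, the 72 h call was lost on leaving out 72 h replicate 2 (adjusted p = 0.0602), and after quantile normalization (adjusted p = 0.057). For Atp2a3, the 72 h call was lost on leaving out uninduced replicates 1 or 3, or 72 h replicates 1 or 3 (adjusted p 0.0515 to 0.104), and with the mean of all its probe sets (adjusted p = 0.0738). REST is a repressor that binds near many channel and synaptic genes in cells other than neurons. It and its cofactors were all tested, and 3 of 9 fell, beside 19.8% of all tested genes (median -0.27 at 72 h). Rest had 1230 to 1350 in uninduced cells, 103 to 512 at 24 h, 190.0 to 316 at 48 h and 165 to 204 at 72 h. It fell by 2.10 (adjusted p = 0.00857) at 24 h and by 2.75 (adjusted p = 0.000295) at 72 h. Sin3a, a corepressor scaffold, fell at 72 h by 0.88 (adjusted p = 0.00785). Without the first 24 h array the 24 h difference of Rest was -1.43. For Rest, the 24 h call was lost in a fit of the 6 arrays compared alone (adjusted p = 0.0786). The left arm of the site that REST recognises (TTCAGCACC, searched on both strands) was in 0 of the 124 channel promoters and 0.301% of all promoters, and the right arm (GGACAGCGC) in 1, or 0.806%, and 0.304%. These sites can lie outside the 250 bases searched.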

How the data were processed

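Total RNA was labelled as biotinylated cRNA and read on Affymetrix arrays. The authors' deposited table holds 1 intensity per probe set and array, which the submitters' processing notes say came from MAS5; the sources used here do not give its version, settings or detection calls. The mean signal without the top and bottom 2% was 150.0 on every array, so the arrays came scaled to a common level.

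Rows with exactly 1 annotated symbol (34945 of 45101, control probe sets left out) gave 18193 genes. Tests were fitted with limma 3.58.1 in R 4.3.3 on log2(signal + 16) as 1 linear model over the 12 arrays with an intensity trend, two-sided, with Benjamini-Hochberg adjustment over the 11806 tested genes and a threshold of 0.05. The number of arrays limits the precision. The fit was also run on simulated data with independent noise and with changes planted only in brighter genes. That run does not bear on genes as dim as most channel genes. The channel genes, families and lists were chosen with earlier results of these data known. The named genes are, in each family, up to 4 rises and 3 falls, the gene with the highest mean level and every gene called between consecutive times with a log2 difference of 1 or more, and in each other list the 2 largest rises and falls.

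Same-numbered arrays had positive correlations of deviations in all 5 comparisons, from 0.0787 to 0.577, with 0.0787 to 0.152 in 72 h against uninduced cells. In 72 h against 48 h a differently numbered pair, 48 h replicate 2 with 72 h replicate 1, had 0.322. That was above the 0.23 of the replicate 1 pair. In the other comparisons every same-numbered pair was above every differently numbered pair. The pairing comes from the replicate numbers in the labels, which do not say what a number shares. Alternatives were other pseudocounts, filters, normalization, probe set rules, fits of the arrays compared alone, array weights, a replicate block and leaving out each array. The filter on any 3 arrays was chosen after seeing the data.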

Additional observations from a re-analysis of the deposited data

Results flagged for a closer look

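Cacng6 moved in opposite directions on all arrays of 2 groups: set against the uninduced arrays, its log2 difference was 0.601 at 24 h, with each of the 3 arrays above the uninduced range, and -0.538 at 48 h, with each of the 3 arrays below it. Neither passed against uninduced cells with limma (adjusted p = 0.178 and 0.141), and the difference between both times did (-1.14, adjusted p = 0.0115). Cacng6 entered the test only through its 24 h arrays, where it was high, and its 48 h signals were below the array medians. Its second probe set had mean signals of 13.4, 33.0, 9.91 and 4.21 in uninduced cells and at 24, 48 and 72 h. On that probe set the 48 h signals (3.54 to 16.9) overlapped the uninduced signals (5.13 to 26.7), with a log2 difference of -0.147.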

How the results depend on the processing

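Of the 72 channel calls in the 5 comparisons, 49 were kept under every alternative that tested the gene, 19 were lost on leaving out at least 1 array, and 0 changed direction. Counts from alternative fits are given without the share over all genes, so they describe only how the channel calls varied. With the filter at percentile 75, which left 47 calls untested, 3 channel genes rose at 24 h, 6 at 48 h and 6 at 72 h; 5 rose and 1 fell from 24 to 48 h, and 0 rose from 48 to 72 h. Fits of the 6 arrays compared alone gave 3 higher at 24 h, 2 lower at 48 h, 1 lower from 24 to 48 h, and 3 higher and 1 lower from 48 to 72 h. Array weights, whose estimation stopped before it converged, gave 2 lower at 48 h and 5 lower at 72 h, 20 higher from 24 to 48 h, and 15 higher and 8 lower from 48 to 72 h. Quantile normalization gave 2 lower at 48 h, 4 lower at 72 h and 3 higher from 48 to 72 h. The single fall at 48 h (Kcnk5) became 0 with a pseudocount of 64, with no filter and with the mean of all probe sets. The single rise from 48 to 72 h (Scn3a) became 0 with a pseudocount of 1, and 3 genes rose with a pseudocount of 64.

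On leaving out each array in turn, the falls at 48 h ranged from 0 (without uninduced replicate 2, any 48 h array, or 72 h replicate 2 or 3) to 2 (without 24 h replicate 1). Those at 72 h ranged from 2 to 4 (without uninduced replicate 1), and those from 48 to 72 h from 0 to 1 (without 24 h replicate 1). The rises from 48 to 72 h ranged from 0 to 3: 3 without 24 h replicate 1 or 72 h replicate 3, 2 without 48 h replicate 2, 1 without 24 h replicate 2 and 0 without any other array. With the floor at percentile 40 of the array, 33, 34, 42 and 42 channel genes were at the floor in uninduced cells and at 24, 48 and 72 h, a rise where the median gave a fall from 66 to 59; at percentile 60 there were 96, 85, 84 and 86. With a replicate block, which treats same-numbered arrays as paired, 7, 23 and 26 channel genes rose at 24, 48 and 72 h; 2 calls were lost and 9 gained, all given in the report, and no other call of a channel gene changed. Signals near the array medians limit what can be read of the 73 genes that were not tested. The causes of these changes were not tested.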
